A study of Homo sapiens with 4 samples.

Results

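The FOXO transcription factors, the muscle ubiquitin ligases FBXO32 and TRIM63 and the growth inhibitor MSTN were followed in rhabdomyosarcoma cells depleted of SKP2. The 6 genes FOXO1, FOXO3, FOXO4, FBXO32, TRIM63 and MSTN were taken by name from the 39323 genes of the deposited tables. They were chosen with earlier results of these data known. All 6 were listed in each library, and all had a mean of at least 1 TPM (a transcript level corrected for gene length and set to a fixed total per library) over the 4 libraries, the minimum that 12985 genes passed. RNA came from RD and JR1, established human lines of fusion-negative rhabdomyosarcoma, a myogenic tumor of childhood that lacks the PAX3/7-FOXO1 gene fusion of the other subtype. Cells were infected with a puromycin-selected lentivirus that expressed a short hairpin RNA against SKP2 (shSKP2; the hairpin named shSKP2.2, used alone here) or a scrambled non-targeting hairpin (shSCR). The groups were RD shSCR, RD shSKP2, JR1 shSCR and JR1 shSKP2, with 1 poly-A selected library each, and all 4 were cultured in serum-containing growth medium.

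FOXO proteins are forkhead transcription factors that the insulin and IGF pathway holds out of the nucleus: the kinase AKT phosphorylates them, and the phosphorylated protein is kept in the cytoplasm or degraded. In skeletal muscle that loses growth signals or innervation, active FOXO1 and FOXO3 switch on FBXO32 (atrogin-1, MAFbx) and TRIM63 (MuRF1), the ubiquitin ligases most used as markers of atrophy. FBXO32 is an F-box protein, the substrate-binding part of the same kind of SCF ligase as SKP2 and best known for targeting MYOD and the translation factor EIF3F, whereas TRIM63 is a RING ligase that sits in the sarcomere and targets thick-filament proteins. Myostatin, encoded by MSTN, is a secreted ligand of the TGF-β family that limits muscle growth through activin receptors and SMAD proteins. SKP2 is itself known as a ligase of phosphorylated FOXO1. RNA levels do not report the amount, phosphorylation or location of any of these proteins.

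RefSeq promoter windows, from 250 bases before to 50 bases after a transcription start (build GRCh38.p14), were found for FOXO1, FOXO3, FOXO4, TRIM63 and MSTN, and none was read for FBXO32. The 8 windows of these 5 genes were searched on both strands for GTAAACA, the core that FOXO factors bind, CAAAACA, the core of the insulin response element, and CAGCTG, an E-box of the kind that myogenic factors bind. The words did not overlap at any hit. Of 35116 windows of the same length, 3.42% held GTAAACA, 4.92% held CAAAACA and 17.9% held CAGCTG. The windows with a hit were those of TRIM63 and FOXO4, and they are shown because TRIM63 is a ligase that moved with FBXO32 and FOXO4 is a FOXO gene whose own window holds the FOXO word; hits are in capitals.
TRIM63, chr1:26067581-26067880, minus strand: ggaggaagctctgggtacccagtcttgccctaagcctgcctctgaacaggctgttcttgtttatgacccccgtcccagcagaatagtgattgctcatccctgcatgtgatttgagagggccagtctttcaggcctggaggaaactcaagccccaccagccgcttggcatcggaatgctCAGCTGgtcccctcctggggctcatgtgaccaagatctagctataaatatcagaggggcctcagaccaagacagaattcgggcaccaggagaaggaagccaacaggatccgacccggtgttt
FOXO4, chrX:71095601-71095900, plus strand: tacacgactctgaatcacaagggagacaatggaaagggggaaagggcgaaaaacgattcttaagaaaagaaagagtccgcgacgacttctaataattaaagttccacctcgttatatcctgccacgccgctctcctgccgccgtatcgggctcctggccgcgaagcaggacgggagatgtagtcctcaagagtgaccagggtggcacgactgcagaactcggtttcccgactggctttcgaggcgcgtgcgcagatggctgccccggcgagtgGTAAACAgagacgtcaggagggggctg
The E-box of TRIM63 began at base -72 relative to the start, upstream in the promoter, and the FOXO word of FOXO4 at base 23, in the first transcribed bases. The windows of FOXO1, FOXO3 and MSTN held none of these exact words. A match of letters is a description and not a measured binding site.

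Each change below compares shSKP2 with the shSCR library of its own line, as the log2 ratio of TPM after 1 was added to both, and a gene passed the fold limit at 1 or more in either direction. The added 1 makes the change of low genes smaller than their ratio of TPM. With 1 library per line and condition, no change within a line could be checked against replicates, and no test was run with the lines as replicates of each other. Short structural RNAs took 58.6% to 72.1% of the TPM total, with a larger share in shSKP2 of each line. Over the 12985 tested genes the median change stood at -0.27 for RD and -0.21 for JR1, so changes relative to that median (centred changes) are given as well. Where the call of a listed gene depended on the scaling, the centred change is followed by the rescaled change, taken after short structural RNAs were removed and the remaining TPM brought back to the same total. The targeted transcript SKP2 went from 92.8 to 7.40 TPM in RD cells and from 46.5 to 2.72 TPM in JR1 cells. Of 5 genes that mark the muscle lineage, MYOD1, MYOG, DES and CHRNA1 had at least 31.6 TPM in every library and MYF5 was listed at 0 in all of them. The markers PTPRC, PECAM1, EPCAM and ALB of blood, endothelial, epithelial and liver cells did not exceed 0.160 TPM in any library.

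FBXO32 and TRIM63 were higher with shSKP2 in both lines and passed the fold limit in both. FOXO1 was higher in both lines and passed the limit in JR1 only. FOXO3 and MSTN were higher in both lines without passing it, and FOXO4 was lower in RD and higher in JR1. Thus 2 of the 6 genes passed the limit upward in RD, where 1.08% of all tested genes did, and 3 of 6 in JR1, where 1.78% did. Both lines were past it upward for 2 of 6, beside 0.539% of tested genes. None passed it downward, against 7.37% of tested genes in RD and 9.05% in JR1. 5 of the 6 had a change above 0 in both lines, as did 17.0% of tested genes, and 5 of 6 were above the median of tested genes in both, as were 37.9%. Relative to that median 2 genes passed the limit upward in RD, beside 2.09% of tested genes, and 3 in JR1, beside 2.99%. None passed it downward on that scale, against 3.53% and 5.47%.

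**Figure D1:**
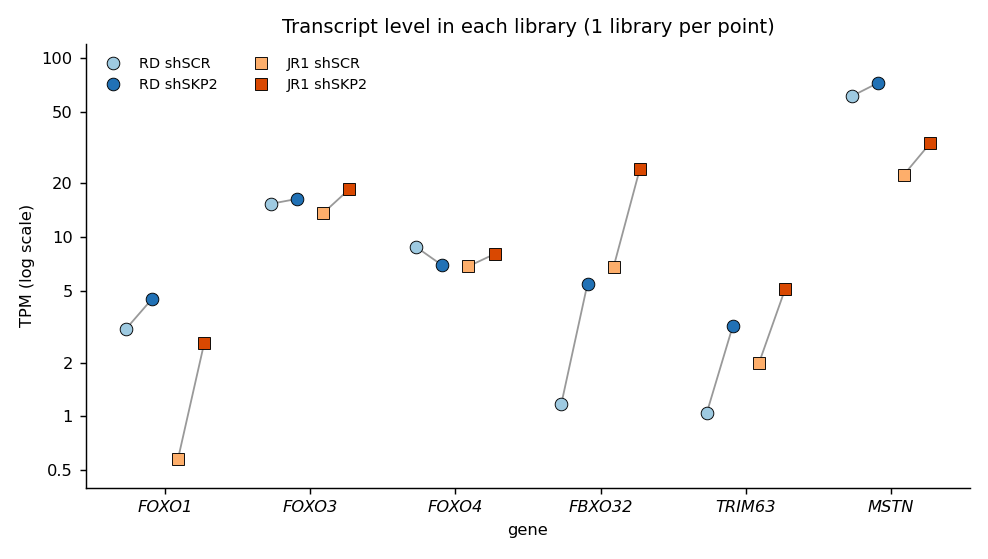
TPM of the 6 genes (y axis, log scale) in the 4 libraries, 1 point per library, with circles for RD, squares for JR1 and a grey line joining shSCR to shSKP2 of a line. The lines of FBXO32 and TRIM63 are steep in both cell lines and that of FOXO1 is steep in JR1, while those of FOXO3, FOXO4 and MSTN are flatter.

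FBXO32 had 1.18 TPM in RD shSCR, 5.51 TPM in RD shSKP2, 6.86 TPM in JR1 shSCR and 24.04 TPM in JR1 shSKP2. The JR1 control library was thus above the depleted RD library, and the value was higher with shSKP2 in each line. The TPM ratio stood at 4.67 for RD and 3.50 for JR1, and the log2 changes were 1.58 and 1.67. Relative to the median of tested genes these changes were 1.85 and 1.89. Ranked from the highest change, FBXO32 stood at place 53 of the 12985 tested genes in RD and at place 73 in JR1, so that 0.408% and 0.562% of tested genes had a change as high or higher.

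TRIM63 had 1.04 TPM in RD shSCR, 3.19 TPM in RD shSKP2, 1.98 TPM in JR1 shSCR and 5.12 TPM in JR1 shSKP2. It was the lowest of the 6 genes in both RD libraries and the lowest but for FOXO1 in both JR1 libraries. Its ratio of TPM was 3.07 in RD and 2.59 in JR1, and its log2 change was 1.04 in each line, just past the limit. Relative to the median of tested genes it was 1.31 in RD and 1.25 in JR1. TRIM63 ranked at place 131 in RD and 219 in JR1. FBXO32 and TRIM63 stood nearly level with each other in RD shSCR, with an FBXO32 level 1.13 times that of TRIM63, and this ratio was 1.73 in RD shSKP2, 3.46 in JR1 shSCR and 4.70 in JR1 shSKP2.

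FOXO1, the member of the family that rhabdomyosarcoma of the other subtype carries as a fusion, had 3.07 TPM in RD shSCR and 4.52 TPM in RD shSKP2. JR1 cells had 0.580 TPM in shSCR and 2.56 TPM in shSKP2, so that both JR1 libraries were below both RD libraries. On the log2 scale this was a change of 0.44 for RD and 1.17 for JR1, and set against the median of tested genes 0.71 and 1.39. FOXO1 ranked at place 690 of the tested genes in RD and 165 in JR1. The ratio of TPM in JR1, 4.41, rests on a control value under 1 TPM, and neither the number of reads behind it nor its counting error is known. The files do not separate fused from intact transcripts, and the study describes both lines as fusion-negative.

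FOXO3, the FOXO factor most tied to FBXO32 induction in atrophy, had 15.4 TPM in RD shSCR, 16.4 TPM in RD shSKP2, 13.7 TPM in JR1 shSCR and 18.6 TPM in JR1 shSKP2. These 4 values lay within a narrow range, and the log2 changes were 0.09 for RD and 0.42 for JR1. Relative to the median of tested genes the changes were 0.36 and 0.63. FOXO3B, a near-identical copy of FOXO3 elsewhere in the genome with which reads can be shared, had 3.69 and 2.81 TPM in RD cells and 2.93 and 1.72 TPM in JR1 cells, for shSCR and shSKP2. The sum of FOXO3 and FOXO3B was 19.1 and 19.2 TPM in RD cells and 16.6 and 20.3 TPM in JR1 cells, log2 changes of 0.01 and 0.28. How many reads the copies share was not measured. FOXO4 had 8.83 and 6.97 TPM in RD cells and 6.89 and 8.07 TPM in JR1 cells. The log2 changes were -0.30 for RD and 0.20 for JR1. Relative to the median of tested genes it was -0.03 in RD and 0.42 in JR1, and with short structural RNA genes removed it was 0.07 in RD.

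FOXO6, the remaining family member, differed more between the lines than with depletion. It had 1.23 TPM in RD shSCR, 2.18 TPM in RD shSKP2, 8.32 TPM in JR1 shSCR and 12.0 TPM in JR1 shSKP2, with log2 changes of 0.51 in RD and 0.48 in JR1. After removal of short structural RNAs its change in RD was 1.02, past the limit. Both JR1 libraries were above both RD libraries, the reverse of FOXO1. Summed over FOXO1, FOXO3, FOXO4 and FOXO6, the level was 28.5 TPM in RD shSCR, 30.1 TPM in RD shSKP2, 29.4 TPM in JR1 shSCR and 41.2 TPM in JR1 shSKP2. FOXO3 made up 45.1% to 54.5% of that sum in the 4 libraries. FOXO1 went from 10.8% to 15.0% of the sum in RD and from 1.97% to 6.22% in JR1, while FOXO4 went from 30.96% to 23.2% in RD and from 23.4% to 19.6% in JR1. FOXO6 made up 4.31% and 7.25% of the sum in RD against 28.3% and 29.1% in JR1. Shares within a library do not depend on the scaling of the TPM total.

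**Figure D2:**
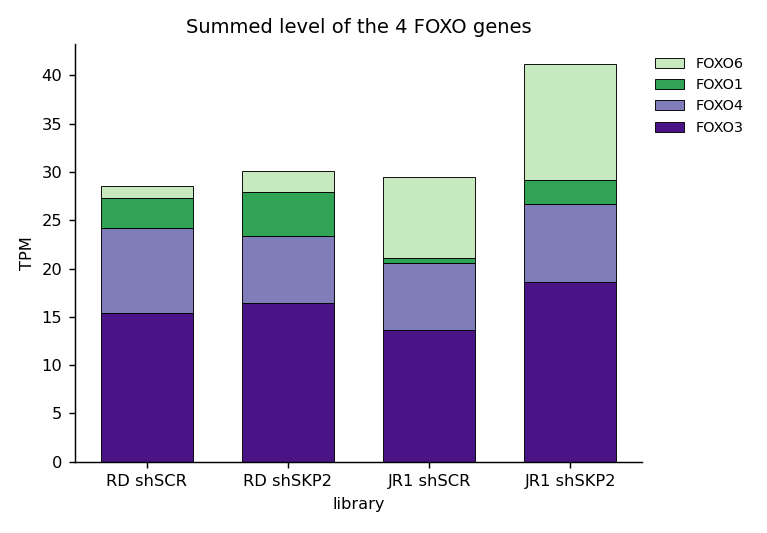
Stacked TPM (y axis) of FOXO3, FOXO4, FOXO1 and FOXO6 in each library (x axis, 1 library per bar). FOXO3 is the largest block in every bar, the FOXO6 block is larger in JR1 than in RD, and the FOXO1 block is the thinnest in JR1 shSCR, at 0.580 TPM.

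MSTN had the highest level of the 6 genes in every library, with 61.4 TPM in RD shSCR, 72.7 TPM in RD shSKP2, 22.4 TPM in JR1 shSCR and 33.6 TPM in JR1 shSKP2. Both RD libraries were above both JR1 libraries. The TPM ratio stood at 1.18 for RD and 1.496 for JR1, and the log2 changes were 0.24 and 0.56. Relative to the median of tested genes it was 0.51 and 0.78, and 10.8% of tested genes in RD and 5.64% in JR1 had a change as high or higher. MSTN was thus above the median gene in both lines without reaching the fold limit in either.

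**Figure D3:**
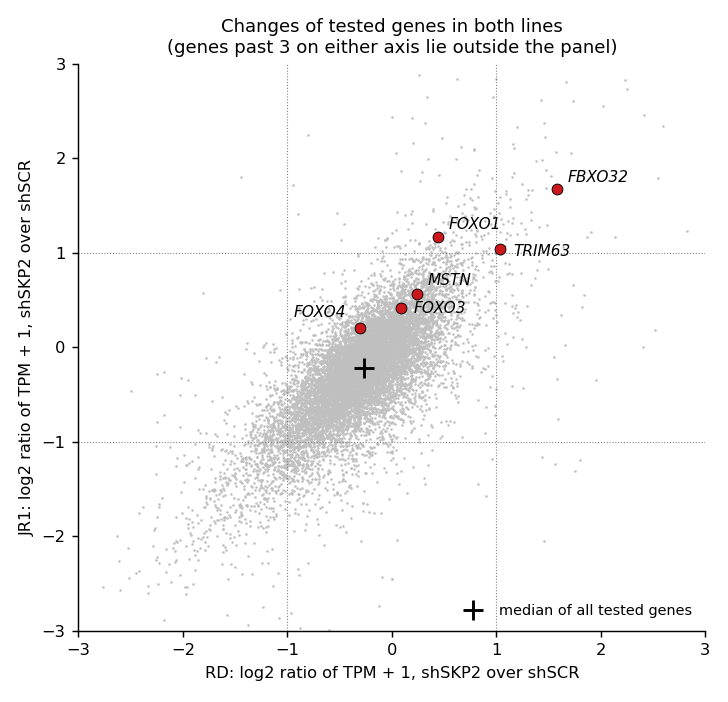
Log2 change in RD (x axis) against log2 change in JR1 (y axis) of the tested genes (grey), with the 6 genes in red, the median of all tested genes as a cross and dotted lines at the fold limit. FBXO32 and TRIM63 lie in the upper right corner past both limits, FOXO1 above the JR1 limit only, and all 6 genes lie at or above the cross in JR1.

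In the order of the levels MSTN came first in all 4 libraries. FOXO3 and FOXO4 followed at the second and the third place in RD shSCR, RD shSKP2 and JR1 shSCR, whereas in JR1 shSKP2 FBXO32 stood between MSTN and FOXO3. The third place of FOXO4 in JR1 shSCR rests on 6.89 TPM against 6.86 TPM of FBXO32, and the lowest values in RD shSCR, FBXO32 at 1.18 TPM and TRIM63 at 1.04 TPM, were also close. With 1 library no order between such neighbours can be shown.

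The control libraries of the lines were also compared, as the log2 ratio of JR1 shSCR over RD shSCR, again with 1 added to TPM. FBXO32 was higher in JR1, with a difference of 1.85, and MSTN and FOXO1 were lower, with differences of -1.41 and -1.37. Upward 1 of the 6 genes passed the limit, beside 3.44% of tested genes, and downward 2 of 6, beside 6.5%. TRIM63 differed by 0.55, FOXO3 by -0.16 and FOXO4 by -0.32, against a median of -0.23 over all tested genes. In the shSKP2 libraries the difference was 1.94 for FBXO32, -1.09 for MSTN and -0.63 for FOXO1, so that 1 gene passed the limit upward, beside 2.7% of tested genes, and 1 downward, beside 5.39%. MSTN, the gene past it downward, was within the limit at -0.92 relative to the median and at -0.96 after short structural RNAs were removed. The changes of the lines with depletion were 0.09 apart for FBXO32 (JR1 minus RD) and less than 0.01 apart for TRIM63, and 0.73 apart for FOXO1. These differences have no test, since each line and condition has 1 library.

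Transcripts whose pattern was most like that of a member were found by the distance of log2(TPM + 1), centred over the 4 libraries, among the tested genes. With 4 libraries such a likeness is a description. Nearest to FBXO32 were UNC45B (distance 0.29), MYOZ2 (0.29), HJV (0.54), TXLNB (0.58) and STYXL2 (0.60). UNC45B, for example, had 0.480 and 3.86 TPM in RD cells and 4.05 and 19.96 TPM in JR1 cells. Nearest to TRIM63 were LINC01894 (0.07), JAG2 (0.12), SESN2 (0.16), PTGS1 (0.17) and BICDL1 (0.20), and SESN2 had 9.04 and 21.0 TPM in RD cells and 14.5 and 34.2 TPM in JR1 cells. Nearest to FOXO1 were CDC14B (0.20), LOC105372709 (0.21), RNF165 (0.22), MEX3B (0.22) and ENDOD1 (0.24). None of the 5 nearest genes of a member was shared with another of these members.

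Other ligases and deubiquitinases of muscle protein turnover were read from a list of 19 genes, of which 18 were tested. Of all tested genes 1.08% passed the limit upward in RD, 1.78% in JR1 and 0.539% in both lines. TRIM54 (MuRF3), a close relative of TRIM63, was the single gene of the list to pass the limit upward, in both lines. It had 0.410 TPM in RD shSCR, 3.06 TPM in RD shSKP2, 1.42 TPM in JR1 shSCR and 7.49 TPM in JR1 shSKP2, log2 changes of 1.53 and 1.81. ASB2, the substrate receptor of a cullin ligase, had 0.120 and 0.160 TPM in RD cells and went from 4.35 to 1.12 TPM in JR1 cells. Its JR1 change of -1.34 was past the limit, which 9.05% of tested genes passed downward in JR1. ASB2 passed the filter on low values through the JR1 control library. The median of the 18 genes was -0.06 in RD and -0.01 in JR1, against -0.27 and -0.21 over all tested genes, and the remaining 16 genes stayed within the limit in both lines.

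Established FOXO targets outside these ligases were read from a list of 30 genes, of which 26 were tested. With the TPM as deposited none passed the limit in RD, where 1.08% of tested genes did upward and 7.37% downward. Of the 26 targets 1 passed it upward in JR1 and 2 downward, beside 1.78% and 9.05% of tested genes. In JR1 the proapoptotic gene BCL2L11 (BIM) passed it upward, from 14.3 to 33.7 TPM with a change of 1.18, and had 14.5 and 26.1 TPM in RD, a change of 0.81. The latter was past the limit at 1.08 centred and 1.25 rescaled. Downward in JR1 were the lysosomal protease gene CTSL, from 43.0 to 20.8 TPM with a change of -1.02, and the glutamine synthetase gene GLUL, from 61.1 to 28.1 TPM with a change of -1.09. Both calls were lost with either scaling, at -0.80 and -0.78 for CTSL and -0.88 and -0.85 for GLUL. In RD the changes of CTSL and GLUL were -0.67 and -0.97. In each line 11 of the 26 targets were above 0, or 18 in RD and 15 in JR1 relative to the median of tested genes, and their median change was -0.02 in RD and -0.19 in JR1. Over all tested genes 24.6% in RD and 30.9% in JR1 had a change above 0.

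Upstream of FOXO, 22 genes of the PI3K-AKT pathway and of FOXO export and acetylation were read and all were tested, and their median change was -0.27 in RD and -0.05 in JR1. None of the 22 passed the limit upward, beside 1.08% of tested genes in RD and 1.78% in JR1. Downward 1 passed it in RD and none in JR1, beside 7.37% and 9.05% of tested genes. This gene, YWHAE, an adaptor protein that binds phosphorylated FOXO, went from 288 to 136 TPM in RD cells and from 185 to 101 TPM in JR1 cells, changes of -1.08 and -0.87. Its RD call was lost at -0.81 centred and -0.67 rescaled. The highest of the list was PHLPP2, a phosphatase of AKT, at 0.40 in RD and 0.82 in JR1, and in JR1 it was past the limit at 1.03 centred and 1.21 rescaled.

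Around myostatin, the related ligands were read first. Of 6 listed ligands 4 were tested. The highest was GDF11, the closest relative of myostatin, with 8.99 and 16.3 TPM in RD cells and 12.2 and 17.5 TPM in JR1 cells, changes of 0.79 and 0.48. In RD it was past the limit at 1.06 centred and 1.24 rescaled. TGFB1 went from 25.6 to 13.7 TPM in RD cells and from 53.9 to 25.7 TPM in JR1 cells, changes of -0.86 and -1.04, and the JR1 call was lost at -0.83 and -0.80. Of 6 receptors 5 were tested, with ACVR2A, a type II receptor that binds myostatin, highest at 0.23 in RD and 0.93 in JR1, the latter past the limit at 1.15 and 1.29. TGFBR1, a type I receptor of TGF-β and myostatin, passed the limit downward in RD and in JR1, as 4.79% of tested genes did, from 49.5 to 22.0 TPM in RD cells and from 64.6 to 19.2 TPM in JR1 cells, changes of -1.14 and -1.70. The RD call was lost at -0.87 centred and -0.75 rescaled, while JR1 stayed past the limit at -1.49 and -1.47.

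All 4 listed SMAD genes were lower with shSKP2 in both lines, as were 61.1% of tested genes, with median changes of -0.68 in RD and -0.53 in JR1, also below the medians of all tested genes. SMAD7, the inhibitory SMAD, was past the limit in RD, from 9.23 to 3.56 TPM with a change of -1.17, and went from 11.3 to 6.43 TPM in JR1 cells, a change of -0.72. The RD call was lost at -0.90 under either scaling. SMAD3, an effector of myostatin, was the highest of the list, at -0.39 and -0.47, and its RD change was 0.01 when rescaled. Of 10 secreted inhibitors, latency proteins and proteases 6 were tested and 2 passed the limit downward in both lines, beside the 4.79% of tested genes that did. TLL2, a tolloid protease of the group that frees myostatin from its propeptide, went from 9.54 to 2.90 TPM in RD cells and from 25.3 to 4 TPM in JR1 cells, changes of -1.43 and -2.40. LTBP3, a latent TGF-β binding protein, went from 68.4 to 27.4 TPM in RD cells and from 34.4 to 12.7 TPM in JR1 cells, changes of -1.29 and -1.37, and its RD call was lost at -0.89 when rescaled. WFIKKN1, a myostatin-binding inhibitor, was the highest at -0.14 in RD and 0.02 in JR1, and was above 0 in both lines under either scaling, at 0.13 and 0.24 centred. FST, the gene of the antagonist follistatin, was under 1 TPM in all 4 libraries.

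Regulators of the ligase genes outside the FOXO family were read from a list of 9, of which 6 were tested. None passed the limit with the TPM as deposited. In RD 1.08% of all tested genes passed it upward and 7.37% downward, and in JR1 1.78% and 9.05%. The highest was MYOG, the myogenic factor known to switch on FBXO32 and TRIM63 in denervated muscle, at 0.87 in RD and 0.98 in JR1. MYOG was past the limit in both lines under either scaling, at 1.14 and 1.19 centred and 1.29 and 1.25 rescaled. Upward 2.09% of tested genes in RD and 2.99% in JR1 passed it when centred, and 4.45% and 4.91% when rescaled. The lowest was NR3C1, the glucocorticoid receptor, at -0.69 in RD and -0.29 in JR1. Known substrates of the ligases were read from a list of 13 genes, of which 9 were tested. The limit was passed upward by 2 of the 9 in RD and by 5 in JR1, beside 1.08% and 1.78% of tested genes. EIF3F, named above as a target of FBXO32, was within the limit at -0.28 in RD and 0.16 in JR1. MYOD1, the gene of the other target named above, was not on this list and was at 0.11 and 0.38. MYL1 and MYLPF, muscle myosin light chains, passed the limit upward in both lines, as did 0.539% of tested genes. They went from 7.10 to 118.7 TPM and from 15.6 to 44.0 TPM in RD cells. In JR1 cells they went from 34.4 to 374 TPM and from 88.7 to 355 TPM. MYH2, MYBPC1 and CKM, a myosin heavy chain, a myosin-binding protein and muscle creatine kinase, passed it in JR1, with changes of 1.99, 3.45 and 2.65, beside 0.34, 0.55 and 0.96 in RD. CKM in RD was past the limit at 1.23 centred and 1.48 rescaled, and MYBPC1 in RD at 1.31 when rescaled. MYH2 and MYBPC1 passed the filter on low values through JR1 shSKP2, and MYBPC1 was listed at 0 in RD shSCR and at 0.010 TPM in JR1 shSCR. The lowest was VIM, an intermediate filament gene, at -0.50 in RD and -0.61 in JR1. Of the 9 genes 6 were above 0 in RD and 7 in JR1, beside 24.6% and 30.9% of tested genes. DES, a muscle gene of the list, was at 0.14 in RD and at -0.50 in JR1. The muscle transcripts past the limit moved with the ligases in the same libraries, and their part in the ligase values was not tested. Changes in the share of cells of a kind and in RNA per cell cannot be told apart in such libraries.

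The scaling of the TPM moved the size of the changes. When 1051 genes of short structural RNAs were taken out and the remaining TPM brought back to the same total, 15228 genes reached the minimum mean, and their median change was 0.12 for RD and 0.01 for JR1. FBXO32 then had a change of 2.29 in RD and 2.02 in JR1, TRIM63 of 1.69 and 1.49, and FOXO1 of 0.89 and 1.90. FOXO3 was then at 0.50 and 0.69 and MSTN at 0.66 and 0.84, so that 2 of the 6 genes passed the limit upward in RD and 3 in JR1, as with the TPM as deposited. Of these 15228 genes 4.45% passed it upward in RD and 3.47% downward, and 4.91% and 7.51% did in JR1.

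**Figure D4:**
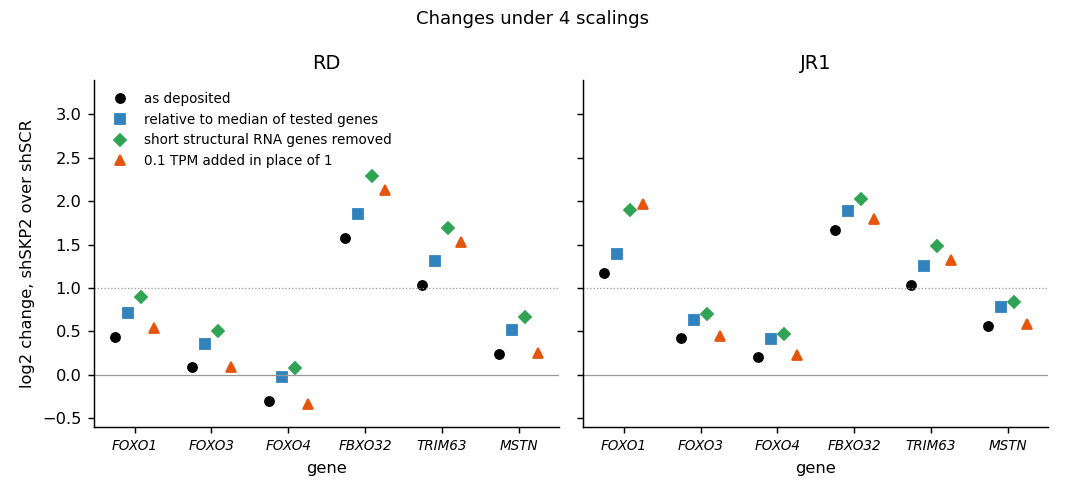
Log2 change (y axis) of the 6 genes (x axis) in RD and JR1 under 4 scalings, with a dotted line at the fold limit and a solid line at 0. FBXO32 and TRIM63 lie above the limit in both panels and FOXO1 in the JR1 panel under each of the 4, and FOXO4 in RD crosses 0.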

How the data were processed

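Per the study's methods, the authors made directional poly-A libraries, aligned paired reads to GRCh38 with STAR 2.7.9a and estimated expression with RSEM 1.3.2, and they deposited 1 TPM value per gene and library, with 2 decimals. The annotation release is not given in the sources used here. TPM keep no read counts, so depth and counting error are unknown. TPM were used as deposited. Changes were log2 ratios of TPM + 1, over genes whose mean over the 4 libraries reached 1 TPM, with a limit of 1 on the log2 scale. There was 1 library per line and condition, and no test was run.

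The 6 genes and all gene lists were chosen with earlier results of these data known, and the lists were written from general knowledge. Besides the 6 genes and SKP2, the genes named are list members past the limit in a line. The highest and lowest of each list by mean change are named too, with the 5 nearest genes by pattern. The line markers, EIF3F and FST are also named, and EIF3F and FST were chosen after their values were seen. A gene of the PI3K-AKT list is not reported here and was left out of that list's counts and median. The scripts were tested on simulated data. Alternatives were 0.1 TPM added, centring on the median, removal of 1051 short structural RNA genes by symbol, no filter, a mean of 5 TPM, a 1.5-fold limit and, added after seeing the data, FOXO3 and FOXO3B summed. Protein motifs of the FOXO factors were not analysed here. Python 3.11.15, numpy 2.4.6, pandas 2.3.3 and matplotlib 3.10.9 were used.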

Additional observations from a re-analysis of the deposited data

Results flagged for a closer look

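Among the genes whose changes are reported, the lines moved in opposite directions for FOXO4, ASB2, WFIKKN1, DES and EIF3F. The difference was not tested, since each line and condition has 1 library. On the log2 scale FOXO4 stood at -0.30 for RD and at 0.20 for JR1. ASB2 had 0.051 in RD, where it was under 1 TPM in both libraries, and -1.34 in JR1. WFIKKN1 had -0.14 in RD, from 1.47 to 1.24 TPM, and 0.023 in JR1, from 0.870 to 0.900 TPM. The opposite directions of WFIKKN1 were lost relative to the median, at 0.13 and 0.24, and those of FOXO4 after removal of short structural RNAs, at 0.07 and 0.47. DES was at 0.14 in RD and -0.50 in JR1, and EIF3F at -0.28 and 0.16. For EIF3F the opposite directions were lost after the same removal, at 0.13 and 0.43.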

How the results depend on the processing

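With a minimum mean of 5 TPM, TRIM63 and FOXO1 were left out, and FBXO32 was the 1 gene of the 6 past the limit upward in RD and the 1 in JR1, while MSTN was the 1 gene past it downward in the control comparison of the lines. In the shSKP2 comparison of the lines the downward count was 0 with centring and with short structural RNA genes removed, where MSTN was within the limit, and 2 with the 1.5-fold limit, which FOXO1 also passed. Under the other alternatives run, the counts of the 6 genes past the limit were those of the report. Calls of named list members that either scaling ended or added are given in the report. With a minimum mean of 5 TPM no gene of the list of other ligases and deubiquitinases passed the limit in either line. The calls of TRIM54 in both lines and of ASB2 in JR1 were thus lost. Of the ligase substrates 3 then passed it upward in JR1, against 5 with the main filter. With short structural RNA genes removed ACTA1 (2.08), BBC3 (1.13) and MYBPC2 (-1.03) were past the limit in JR1 as well. Without the filter on low values ACTA1 was also past the limit in JR1, at 1.11. With 0.1 TPM added, CKM and MYBPC1 passed it in RD and PHLPP2 and ACVR2A in JR1. Over these alternatives the change of FBXO32 ranged from 1.58 to 2.29 in RD and from 1.67 to 2.02 in JR1, that of TRIM63 from 1.04 to 1.69 and from 1.04 to 1.49, and that of FOXO1 in JR1 from 1.17 to 1.97. FOXO4 in RD ranged from -0.34 to 0.07, and FOXO3 in the control comparison from -0.19 to 0.13, so their direction depended on the scaling. The labels give no replicate numbers, each group has 1 library, and no fit over both lines with the line as a block was run. TPM without read counts limit what can be said of values near 1 TPM, which include the control levels of FBXO32 and TRIM63 in RD and of FOXO1 in JR1.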
